A study of Mus musculus with 15 samples.

Results

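MT elements are a subfamily of the mammalian apparent LTR retrotransposons (MaLR, class LTR, family ERVL-MaLR), non-autonomous retrotransposons whose solitary long terminal repeats (LTRs) are scattered through the mouse genome. The piRNAs described here were all loci of the 15 count files whose repeat annotation gave class LTR, family ERVL-MaLR and a repeat name starting with MT. A locus is 1 genomic interval and strand of mm10 to which reads of exactly that length were assigned, and 81503 of the 8128951 loci in the files met the rule. They carried 16 repeat names and fell into 510 element copies in 255 genomic regions, where a copy is a run of loci of 1 repeat name with gaps of at most 200 bases. The names divide into the lineages MTA (2418 loci), MTB (5532), MTC (22627), MTD (20609) and MTE (30255), and the internal sequence MT-int gave a further 62 loci.

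PIWI-interacting RNAs (piRNAs) are small RNAs of the germ line that guide PIWI proteins to complementary transcripts, and in the mouse testis they silence transposons and target messenger RNAs. Most piRNAs of the adult testis are cut from long single-stranded precursors transcribed from piRNA clusters, and a transposon copy lying inside a cluster contributes whatever sequence it holds on the transcribed strand. MILI binds the shorter and MIWI the longer piRNAs of the adult testis, and their first base is usually uridine. Pseudouridine (Ψ) is an isomer of uridine made after transcription, so that each uridine of a piRNA is a position at which it can occur.

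The libraries were small RNA from the testes of male C57Bl/6 mice at 8 weeks of age, with no other genotype, allele or agent in the labels, and each of 5 groups had 3 libraries. Ψ-IP libraries were RNA bound by an antibody against Ψ, flow-through libraries the RNA that the antibody left behind, and input libraries the RNA before immunoprecipitation. CMC libraries were treated with a carbodiimide that forms an adduct on Ψ which stops reverse transcriptase, and mock libraries, which the titles call untreated, are their controls. The mock and CMC libraries were made with a kit of another maker than the input, Ψ-IP and flow-through libraries, so kit and group cannot be told apart between mock and input, and their values are set side by side only. Nothing in the labels says that replicates came from separate animals, and p-values then measure the spread between these libraries, which may be technical.

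Sequence was at hand for 13559 MT loci, those lying wholly inside exons or promoter windows of the annotation of the same build, so that a check of base composition over all MT loci is void for want of sequences. Each sequence printed here is the piRNA from its 5′ end, in DNA letters as the reference gives it, and capital T marks every position that is uridine in the RNA and could therefore carry Ψ. The first set comes from a pair of MTEa copies on chromosome 5, read on the strand opposite to the annotated transcript Gm43353, and is shown because neighbouring piRNAs of 1 element moved in opposite directions in the Ψ-IP libraries.
MTEa piRNA chr5:113325000-113325029, minus strand: TgagaTccacaggTaaaccTaTcTgaaaac
MTEa piRNA chr5:113325033-113325062, minus strand: TTgTTTTTTTaTTTgTTcTggggcgTTagc
MTEa piRNA chr5:113325287-113325317, minus strand: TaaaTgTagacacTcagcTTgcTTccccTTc
MTEa piRNA chr5:113325288-113325319, minus strand: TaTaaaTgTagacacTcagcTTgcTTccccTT
These piRNAs hold 6, 17, 10 and 11 uridines, and the last pair overlaps by nearly its whole length with 5′ ends 2 nt apart.

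The second set comes from the MTE2b copy on chromosome 7 inside exons of the lincRNA Gm21269 and holds the piRNAs of that copy that were most abundant among those with a sequence.
MTE2b piRNA chr7:73837380-73837410, plus strand: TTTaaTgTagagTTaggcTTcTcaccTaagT
MTE2b piRNA chr7:73837247-73837275, plus strand: TgaaTTTcaaggaTacaggTaaTTacaac
MTE2b piRNA chr7:73837458-73837486, plus strand: TaggTgTTTgagaaTcTgTccagTTTaca
The third set holds a strong rise and a strong fall in Ψ-IP from 2 further copies, on chromosome 8 in Gm30132 and on chromosome 17 in Gm49793, and a piRNA on chromosome 1 in 4930558J18Rik that moved in both assays.
MTD piRNA chr8:93421036-93421065, minus strand: TagTTTTTcaTcTagcccTcTTaTaTaacc
MTEa piRNA chr17:27308332-27308359, minus strand: TggTgaTTTTaagcTcagTcaaaTaaac
MTE2a piRNA chr1:57360160-57360190, minus strand: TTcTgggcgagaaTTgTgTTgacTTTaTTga
The words TNTAA and TNTAG, the form in DNA letters of a motif that the Ψ synthase PUS7 recognises, were looked for on the piRNA strand only. They were in 17.3% of the 13559 MT loci with a sequence and in 23.9% of the 184355 loci in repeats of any kind with one.

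MT piRNAs were a small part of the testis piRNAs. They made up 0.580%, 0.570% and 0.574% of the counts in the mock libraries and 0.575%, 0.582% and 0.576% in the CMC libraries. They made up 0.648%, 0.633% and 0.639% in input, 0.623%, 0.602% and 0.607% in Ψ-IP, and 0.735%, 0.704% and 0.708% in flow-through. The share was below all 3 input and all 3 flow-through libraries in each Ψ-IP library, and the CMC and mock libraries overlapped. The exact permutation test over libraries, two-sided, gave p = 0.1 for Ψ-IP against input and against flow-through, the smallest value that 3 against 3 libraries can reach, and p = 0.4 for CMC against mock. The 2 Ψ-IP comparisons share the Ψ-IP libraries. The size of the MT share itself, as in input or mock, comes from RNA of a whole tissue. For that size, the number of cells that make a piRNA and its amount per cell cannot be told apart.

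Library totals ran from 11575705 to 58399368 counts, and 9755 to 22253 MT loci were seen in a single library. Over MT copies, the chi-square between replicates of 1 group was 2.04 to 7.54 per degree of freedom, above that of sampling noise, and no pair of libraries held identical counts. Levels are given as CPM, counts per 1000000 counts of the library, and fold changes come from quasi-likelihood fits in edgeR after TMM scaling, fitted over every locus, 5′ end, copy or name of the files and adjusted over all of them by the method of Benjamini and Hochberg, with a threshold of 0.01.

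Summed over all MT loci and fitted with 27 groups made of the repeat families and the loci outside repeats, MT piRNAs were lower in Ψ-IP than in input by a log2 change of -0.08 (SE 0.02, adjusted p = 0.0091) and lower than in flow-through by -0.24 (SE 0.03, adjusted p = 0.00012). The input call is a small shift near the threshold, and it ended when any 1 library was left out, with values from -0.10 to -0.07, and under each other scaling or filter tried. Without the most abundant copy, an MTC copy on chromosome 6, the change against input was -0.099 (adjusted p = 0.0081). ORR1 elements, the sister subfamily of mouse MaLR, moved the other way, by 0.08 (adjusted p = 0.0042) and 0.08 (adjusted p = 0.0081). The remaining MaLR elements, among them MLT and MST, fell by 0.23 (adjusted p = 0.00019) and 0.25 (adjusted p = 6.65e-05) on the log2 scale. With CMC the summed change of MT was 0.01 (adjusted p = 0.64), and without the chromosome 5 MTE2b copy, which held 18.1% of MT counts there, it was 0.093 (adjusted p = 0.018), which did not pass the threshold either.

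The log2 ratio of MT to ORR1 counts within a library was -1.36, -1.42 and -1.38 in input and -1.51, -1.59 and -1.55 in Ψ-IP, and the groups did not overlap (exact permutation p = 0.1, the smallest possible). In flow-through it was -1.20, -1.23 and -1.24, above all Ψ-IP libraries (exact permutation p = 0.1). In mock libraries it was -1.11, -1.13 and -1.08 against -1.10, -1.15 and -1.12 with CMC, which overlapped (exact permutation p = 0.5). Against the remaining MaLR elements the log2 ratio was higher in all 3 Ψ-IP libraries, at 0.24, 0.25 and 0.22, than in input, at 0.11, 0.10 and 0.07 (exact permutation p = 0.1), and overlapped with flow-through, at 0.27, 0.21 and 0.20 (exact permutation p = 0.7). With CMC that ratio was -0.22, -0.23 and -0.26, below mock at -0.16, -0.21 and -0.21 (exact permutation p = 0.1). Relative to input, MT piRNAs thus lost ground to ORR1 and gained on the remaining MaLR elements in Ψ-IP.

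MTE elements gave most of the MT piRNAs. In input they held 51.2% of MT counts, MTC 26.9%, MTD 16.9%, MTB 4.58% and MTA 0.467%. In mock libraries the order was the same, with 58.0%, 25.8%, 12.4%, 3.47% and 0.379%. A few copies supplied these numbers, since the 6 most abundant held 57.3% of MT counts in mock and 45.9% in input, and 5 copies in mock or 8 in input were enough for 50%. How reads that align to several copies were counted is not given in the sources used here, so the assignment of a piRNA to 1 of several like copies is uncertain. Of the MT loci, 1131, with 3.68% of MT counts, lie at intervals that the files list under several repeats.

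MT counts were concentrated in a few genomic regions, although the 510 copies with piRNAs lay in 255. The region chr5:113313087-113380783 held 9 MT copies with 35.2% of MT counts in mock and 17.9% in input. The regions chr4:94274298-94334175 and chr17:27269744-27371970 held 11.97% and 11.6% in mock and 9.82% and 11.4% in input. The regions chr6:127772148-127853957 and chr7:73759087-73850961 held more of the input than of the mock counts, with 13.4% and 11.8% of input against 7.94% and 4.28% of mock.

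By repeat name, 2 of the 12 MT names tested were higher and 2 lower in Ψ-IP than in input, while 17.7% and 21.5% of all 311 repeat names were. Against flow-through 0 were higher and 5 were lower with edgeR and with DESeq2, and 6 had an unadjusted p under 0.05, beside 31.2% and 31.2% of all names in each direction. The median log2 change of the 12 names was -0.06 against input and -0.18 against flow-through, and that of all names -0.02 and 0.05. With library totals in place of TMM, 1 was higher and 2 lower than input, and 0 and 7 against flow-through. Without input replicate 1, input replicate 3 or Ψ-IP replicate 1 the 4 calls against input became 2, 1 and 1. As counts here are summed over repeats only, these values are relative to the piRNAs of all repeats.

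MTE2a, an LTR of the MTE lineage, had the largest change among the 12 MT names tested in Ψ-IP against input. Its level was 759, 763 and 764 CPM in input, 499, 495 and 531 CPM in Ψ-IP and 898 CPM on average in flow-through. All 3 Ψ-IP libraries were far below input, a log2 change of -0.59 (SE 0.05, adjusted p = 1.45e-05), and -0.81 against flow-through (adjusted p = 1.72e-06). Without its most abundant copy, on chromosome 4, MTE2a was still lower in Ψ-IP, by -0.39 against input (adjusted p = 0.0011) and -0.45 against flow-through.

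The other MT names moved less. MTE2b was at 1203, 1181 and 1247 CPM in input and 1072, 1051 and 1060 CPM in Ψ-IP, groups that did not overlap, with a log2 change of -0.20 (adjusted p = 0.0029) that was no longer called without input replicate 1, input replicate 3 or Ψ-IP replicate 1. Without its most abundant copy MTE2b was at -0.19 (adjusted p = 0.0052). MTEa was at 1077, 1078 and 1042 CPM in input and 1315, 1349 and 1200 CPM in Ψ-IP, again without overlap, a rise of 0.26 (adjusted p = 0.0027). A single copy on chromosome 17 carried that rise, since without it the change was 0.05 (adjusted p = 0.43), and the call also ended without input replicate 3 or Ψ-IP replicate 1. MTE-int, the internal part of MTE elements, was at 191, 197 and 187 CPM in input and 222, 213 and 225 CPM in Ψ-IP, and its rise of 0.19 (adjusted p = 0.0098) was lost with library totals in place of TMM and without any 1 of the 6 libraries. Without its most abundant copy, which held 42.2% of its counts, MTE-int rose by 0.34 (adjusted p = 0.0017).

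Against flow-through, MTC fell by 0.29 (adjusted p = 0.00074), MTD by 0.27 (adjusted p = 0.0011), MTB by 0.36 (adjusted p = 0.00047) and MTEb by 0.66 (adjusted p = 0.00044) on the log2 scale. The fall of MTB rested on 1 copy that held 68.7% of its counts, and without that copy MTB rose by 0.46 (adjusted p = 0.00017). MTEb without its most abundant copy was at -0.26 (adjusted p = 0.051). MTC and MTD without theirs were still lower, at -0.28 (adjusted p = 0.0033) and -0.23 (adjusted p = 0.0028). When names were pooled by lineage, 0 of 5 lineages passed the test against input with edgeR or DESeq2, with 2 and 0 of 5 at an unadjusted p under 0.05, and MTB, MTC, MTD and MTE were lower than flow-through, by -0.38, -0.32, -0.30 and -0.18. The list of MT2 names, the LTRs of the autonomous ERVL elements that share ancestry with MaLR, had 0 higher and 1 lower of 5 against input and 2 and 0 against flow-through, beside 17.7% and 21.5% and then 31.2% and 31.2% of all names.

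**Figure D1:**
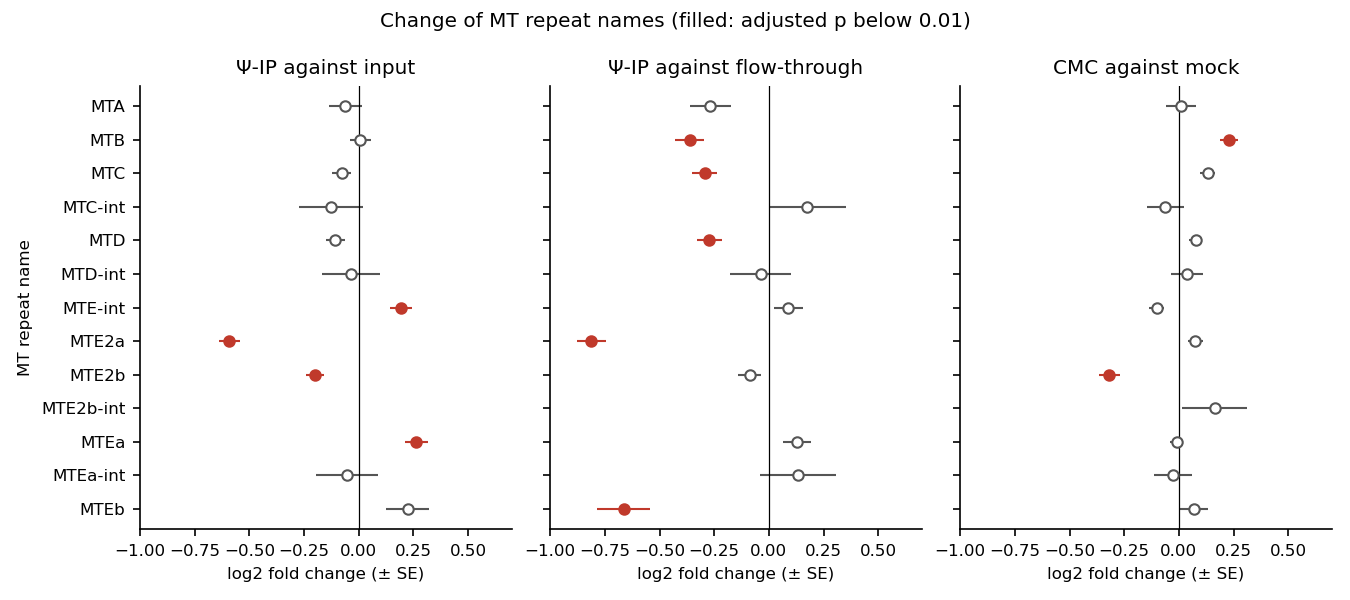
Log2 fold change of each MT repeat name (horizontal axis, with SE bars) in Ψ-IP against input, Ψ-IP against flow-through and CMC against mock, 3 libraries per group; filled points have an adjusted p under 0.01. MTE2a lies furthest to the left in the first panel at -0.59, and in the CMC panel MTB at 0.23 and MTE2b at -0.32 are the filled points.

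After CMC treatment 1 of 13 MT names was higher and 1 lower, beside 2.88% and 4.9% of all 347 repeat names. MTE2b was at 1383, 1420 and 1528 CPM in mock and 1199, 1131 and 1192 CPM with CMC. The groups did not overlap and the log2 change was -0.32 (SE 0.05, adjusted p = 0.0016), but 78.2% of its counts came from 1 copy on chromosome 5, without which the change was 0.06 (adjusted p = 0.24). The call also ended without mock replicate 2, at -0.33. MTB was at 196, 202 and 197 CPM in mock and 221, 251 and 237 CPM with CMC, a rise of 0.23 (adjusted p = 0.0049) that was lost without any 1 mock library or CMC replicate 2, and that was 0.12 (adjusted p = 0.11) without the copy holding 73.8% of its counts. The remaining 11 names did not pass the test.

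Single copies showed the changes that the names average out. Of 201 MT copies tested against input, 14 were higher and 29 lower in Ψ-IP, and 11.8% and 11.9% of all copies of repeats were. The corresponding shares of MT copies were 6.97% and 14.4%. Against flow-through, 12 of 200 were higher and 28 lower, beside 16.5% and 13.3% of all copies. Median log2 changes of MT copies were -0.07 and -0.13, and those of all copies 0.01 and -0.02. The split depended on the scaling, since with library totals 6 were higher and 53 lower than flow-through, and the median of all copies moved to -0.30. Without input replicate 1 or 3 the 43 calls against input became 27 and 28, and without Ψ-IP replicate 3 the 40 calls against flow-through became 25.

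The MTE2a copy chr4:94290393-94290748, on the strand of the lincRNA Gm12648, was the most abundant copy that fell. Its level was 481, 527 and 514 CPM in input, 294, 316 and 332 CPM in Ψ-IP and 649, 621 and 630 CPM in flow-through. The 3 groups did not overlap, and the log2 change was -0.64 against input (SE 0.08, adjusted p = 2.05e-06) and -0.83 against flow-through (adjusted p = 1.06e-06). The MTEa copy chr17:27308315-27308698, in the lincRNA Gm49793, moved the opposite way, with 421, 412 and 397 CPM in input, 591, 699 and 524 CPM in Ψ-IP and 246, 252 and 261 CPM in flow-through. Ψ-IP was above every library of both other groups, with a log2 change of 0.61 (SE 0.09, adjusted p = 1.58e-05) and 1.44 (adjusted p = 1.37e-08).

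The MTE-int copy chr12:98408189-98408505 was the copy that passed the test in all 3 comparisons with higher Ψ-IP and lower CMC levels. It was at 65.3, 68.3 and 58.6 CPM in input, 97.0, 102 and 105 CPM in Ψ-IP and 44.3, 53.3 and 56.5 CPM in flow-through, and at 135, 136 and 129 CPM in mock and 113, 106 and 102 CPM with CMC. None of these groups overlapped within its comparison, and the log2 changes were 0.72 (adjusted p = 2.2e-06), 1.17 (adjusted p = 3.51e-07) and -0.37 (adjusted p = 0.0028). The CMC call ended without mock replicate 2, mock replicate 3 or CMC replicate 2. The MTD copy chr8:93420872-93421068, in Gm30132 and opposite the antisense gene Gm45765, rose from 38.8, 37.7 and 38.1 CPM in input to 77.0, 52.7 and 60.3 CPM in Ψ-IP, by 0.78 (adjusted p = 9.33e-06), and by 1.49 against 23.96, 26.4 and 26.2 CPM in flow-through.

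The most abundant copies did not all move. The MTC copy chr6:127804826-127805231, with 13.3% of MT counts the leading copy in input, was at 861, 885 and 818 CPM in input and 873, 870 and 870 CPM in Ψ-IP, with overlapping groups and a log2 change of 0.08 (SE 0.07). The MTE2b copy chr7:73837191-73837671 in Gm21269 was at 467, 446 and 500 CPM in input and 402, 398 and 427 CPM in Ψ-IP, a change of -0.15 (SE 0.08) that did not pass the test. The MTC copy chr5:113322597-113322714, at 91.1, 99.0 and 95.9 CPM in input, was higher in all Ψ-IP libraries, at 131, 116 and 123 CPM, by 0.42 (adjusted p = 0.00062), a call lost without input replicate 1.

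**Figure D2:**
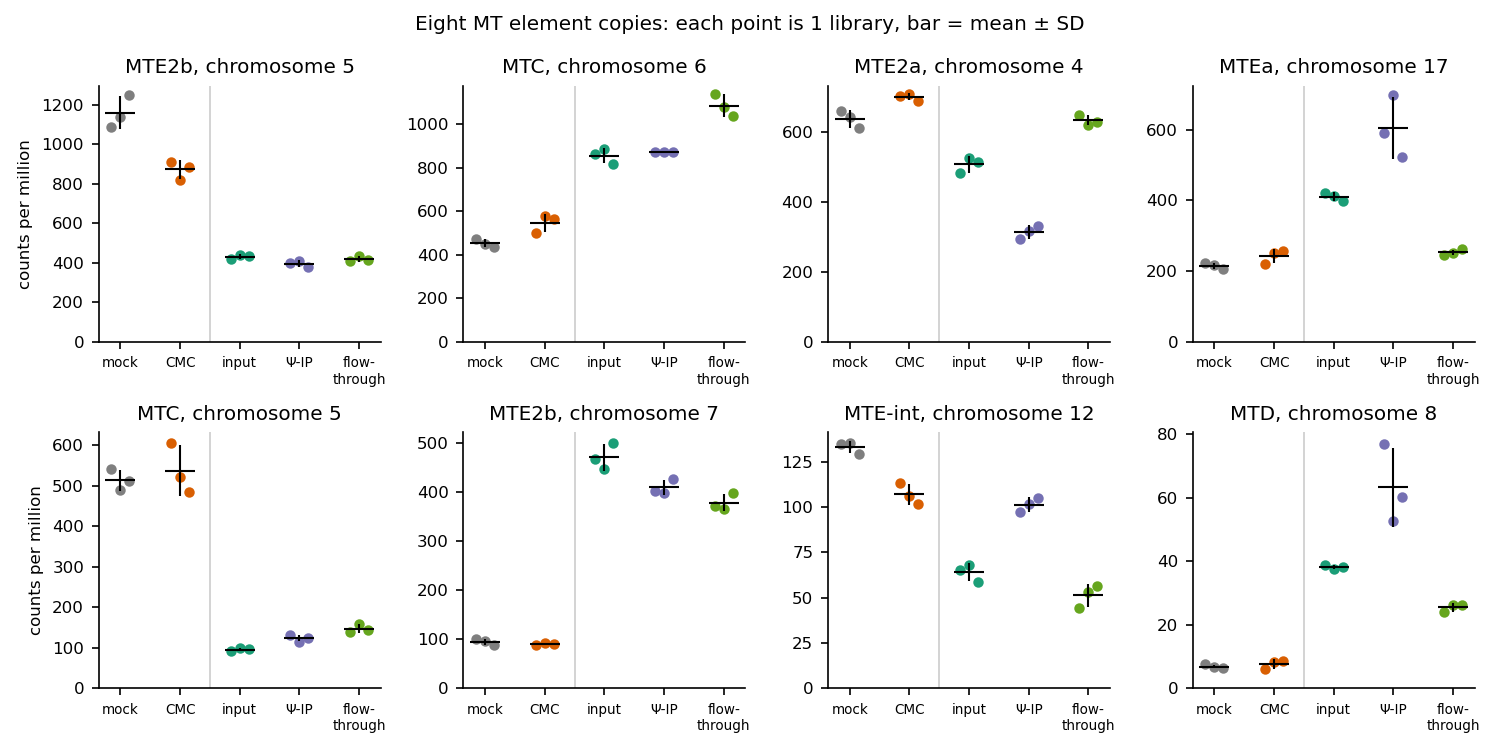
Level of 8 MT copies in CPM, with a point for each of the 15 libraries and bars for the mean and SD of the 3 libraries of a group. The MTEa copy on chromosome 17 was highest in Ψ-IP (524 to 699 CPM), the MTE2a copy on chromosome 4 lowest there (294 to 332 CPM), and the MTE2b copy on chromosome 5 was lower with CMC (817 to 911 CPM) than in mock.

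Among the copies past the threshold, less abundant ones had the largest fold changes. Small changes pass the threshold less often where counts are low, so this order follows in part from the selection. Among falls against input were 3 MTC copies, chr9:88618788-88618890 (11.0, 9.96 and 11.5 CPM in input against 2.65, 2.51 and 3.38 CPM in Ψ-IP), chr9:89047926-89048022 and chr14:69836051-69836306, at -1.83, -1.65 and -2.91, and the MTEa copy chr9:67765315-67765391 at -2.24. The chr14 copy averaged near 1 CPM in input and lost its call without Ψ-IP replicate 3. The MTEb copy chr11:103440228-103440325 ran in opposite directions, since it was at 12.6, 13.5 and 12.6 CPM in input, 26.3, 17.7 and 26.1 CPM in Ψ-IP and 57.9, 44.5 and 35.4 CPM in flow-through. It was thus higher than input by 0.92 (adjusted p = 1.23e-05) and lower than flow-through by -0.79 (adjusted p = 0.0012).

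Against flow-through, the MTD copy chr12:98454593-98454774, opposite the potassium channel gene Kcnk10, fell by 1.86 and the MTE2b copy chr10:62662263-62662525, opposite Stox1, fell by 1.43 on the log2 scale. Both were near 0 against input, at -0.05 and -0.10, since flow-through alone was high, at 34.8, 21.7 and 23.98 CPM and at 61.7, 46.0 and 52.1 CPM. The MTB copy chr15:59288781-59289084 was at -1.57, a call lost without flow-through replicate 1 or Ψ-IP replicate 3. The remaining calls of large size lay on copies of 5 CPM or less and depended on single libraries. They were the MTB copy chr3:20501244-20501646 (0.89) and the MTB-int copy chr10:85843662-85844074 (1.94) against input, both lost without input replicate 1 or 3, and the MTEa copy chr6:58103108-58103218 (1.77), the MTC copy chr4:120910821-120910899 (1.76) and the MTC copy chr1:92985991-92986131 (2.12) against flow-through, each lost with library totals and without Ψ-IP replicate 1 or 2.

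With CMC, 1 of 224 MT copies was higher and 2 were lower, beside 0.562% and 1.74% of all copies of repeats. The MTE2b copy chr5:113336980-113337305 led all MT copies in mock, with 20.2% of MT counts, and was at 1089, 1137 and 1250 CPM there against 911, 817 and 886 CPM with CMC. The groups were well apart, with a log2 change of -0.46 (SE 0.07, adjusted p = 0.000455). In Ψ-IP the same copy was at 398, 411 and 378 CPM, close to 417, 441 and 435 CPM in input, a change of -0.07 (SE 0.08). The other copy that fell was the MTE-int copy on chromosome 12 described above, and the copy that rose was the MTD copy chr10:85862056-85862225, opposite Pwp1, at 5.64, 5.38 and 5.09 CPM in mock and 7.12, 8.98 and 8.34 CPM with CMC. Its rise of 0.53 (adjusted p = 0.0032) was lost without mock replicate 2, mock replicate 3 or CMC replicate 2, and its level in Ψ-IP was lower than in input by -0.76. Without any 1 of those 3 libraries 1 of the 3 calls was left, and without CMC replicate 1 there were 7.

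Of the 81503 MT loci, 4991 passed the minimum of more than 20 counts over the 9 libraries of the Ψ-IP set and held 84.1% of its MT counts, and 4130 passed it in the CMC set and held 90.4%. Against input, 209 of the 4991 were higher in Ψ-IP and 526 lower, shares of 4.19% and 10.5%, while 5.45% and 10.7% of all loci were. The median log2 change was -0.21 over MT loci and -0.10 over all loci. Of the loci called, 192 and 520 changed at least 2-fold, and they lay in 35 and 60 copies. Smaller changes were rarely detectable, since 10 of 95 simulated 2-fold changes were recovered at loci averaging at least 50 counts. Input replicates 1 and 3 weighed most, since without them the calls were 97 and 99 higher and 297 and 348 lower.

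Against flow-through 361 MT loci were higher and 216 lower, shares of 7.23% and 4.33%, beside 9.3% and 3.56% of all loci. With library totals in place of TMM these became 291 and 324, as the median of all loci moved from -0.02 to -0.30. Without Ψ-IP replicate 1 or 2 the lower calls were 138 and 136. With CMC 37 MT loci were higher and 29 lower, which is 0.896% and 0.702% of those tested, beside 1.07% and 0.654% of all loci, and without mock replicate 2 there were 21 and 18. Without CMC replicate 2 there were 19 lower. With the replicate number as a block, the libraries of the CMC set being treated as paired, 43 were higher and 41 lower. The 37 rises had a median size of 2.45 and the 29 falls of 0.77 on the log2 scale. These sizes belong to called loci only, and small changes pass the threshold less often where counts are low.

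Because 1 piRNA 5′ end gives several loci that differ in length only, loci were also summed by 5′ end, a grouping chosen after the data were seen. Of 3013 MT 5′ ends, 143 were higher and 329 lower in Ψ-IP than in input, and 7.32% and 11.7% of all 5′ ends were. Against flow-through 219 were higher and 157 lower, with 10.5% and 5.45% of all. With CMC 12 of 2328 were higher and 18 lower, with 1.17% and 1.03% of all, and this split turned to 20 and 9 with library totals. By name, MTEa had 29 ends higher and 43 lower than input of 414, MTE2b 14 and 49 of 347, MTE2a 14 and 37 of 223, MTC 25 and 89 of 736, and MTD 39 and 67 of 810. Without input replicate 1 or 3 the 472 calls against input became 294 and 312, without Ψ-IP replicate 1 the 376 against flow-through became 250, and without mock replicate 2, mock replicate 3 or CMC replicate 2 the 30 with CMC became 15, 19 and 14.

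A single 5′ end set the change of several copies. In the MTE2a copy on chromosome 4 the end at position 94290727 on the minus strand was at 285, 325 and 327 CPM in input, 89.6, 99.7 and 131 CPM in Ψ-IP and 526, 500 and 511 CPM in flow-through. That is a log2 change of -1.61 (SE 0.19, adjusted p = 2.05e-11) and -2.04 (adjusted p = 1.77e-13), in groups far apart, and the end held 61.3% of the copy's counts in input, 35.5% in Ψ-IP and 80.9% in flow-through. The rest of the copy was at 195.5 CPM in input and 207.3 CPM in Ψ-IP. Its 30-nt locus chr4:94290698-94290727, the most abundant MT locus in input, was at 167, 204 and 218 CPM in input and 55.2, 64.0 and 78.3 CPM in Ψ-IP.

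In the MTEa copy on chromosome 17 the end at 27308489 on the minus strand was at 96.3, 123 and 90.4 CPM in input, 304, 417 and 234 CPM in Ψ-IP and 33.7, 33.9 and 34.7 CPM in flow-through. Every Ψ-IP library was above every other library, by a log2 change of 1.54 (adjusted p = 1.6e-10) and 3.43 (adjusted p = 6.59e-24), and the end went from 24.8% of the copy's counts in input to 50.8% in Ψ-IP. Without it the copy was at 306.9 CPM in input and 286.1 CPM in Ψ-IP. In the same copy the piRNA chr17:27308332-27308359, printed above with 9 uridines, was lower in Ψ-IP than in input by -2.81, and its difference from flow-through, -0.98 (adjusted p = 0.19), did not pass the test.

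The copy on chromosome 8 held another end of this kind, at 93421065, which rose from 7.98, 6.88 and 7.63 CPM in input to 51.6, 32.0 and 36.1 CPM in Ψ-IP, by 2.32 (adjusted p = 8.75e-16). Its 30-nt piRNA, with 13 uridines, was at 2.63, 1.99 and 2.01 CPM in input, 18.5, 10.5 and 11.5 CPM in Ψ-IP and 1.40, 1.56 and 1.89 CPM in flow-through. Falls were ranked only among ends averaging at least 50 counts per library with the same direction in every pair of libraries. Ends with the largest falls among these were 73803032 on chromosome 7, in an MTE2b copy (-3.90), and 24116989 on chromosome 14, in an MTD copy (-3.68). The latter was at 46.7, 29.03 and 39.9 CPM in input and 3.34, 2.76 and 3.30 CPM in Ψ-IP. The ends 27341815 and 27341812 of the MTB copy on chromosome 17 in Gm10505 fell by 3.31 and 3.25 on the log2 scale.

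**Figure D3:**
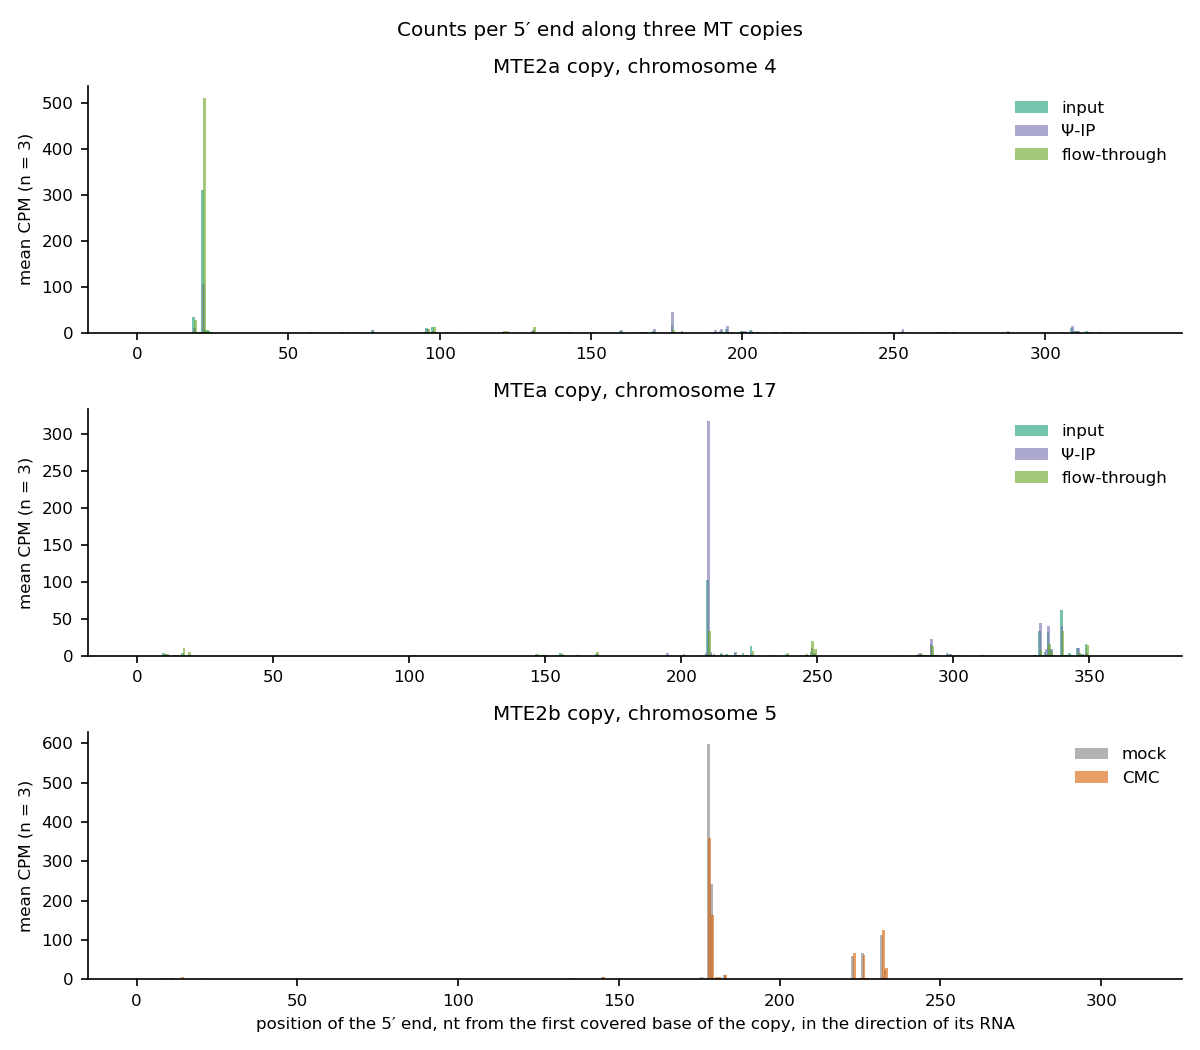
Mean level per 5′ end, in CPM, along 3 MT copies, with the horizontal axis in nt from the first covered base; the MTE2a and MTEa copies are drawn for input, Ψ-IP and flow-through and the MTE2b copy for mock and CMC. In the MTE2a copy 1 end falls with Ψ-IP, in the MTEa copy 1 end rises, and in the MTE2b copy 1 end is lower with CMC.

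At single loci with CMC, 18 of the 29 MT falls and 11 of the 37 rises lay in the chromosome 5 MTE2b copy, which had 190 loci tested. Of all loci tested, repeats of every kind included, 0.654% were lower and 1.07% higher. The end of this copy at 113337128 on the minus strand was at 562, 578 and 654 CPM in mock and 403, 320 and 352 CPM with CMC, groups far apart, a log2 change of -0.83 (SE 0.11, adjusted p = 3.32e-06). Without this end the copy was at 560.5 CPM in mock and 513 CPM with CMC. The end 1 nt further downstream, at 113337127, was at 227, 238 and 264 CPM in mock and 180, 151 and 158 CPM with CMC (-0.67), and the end 2 nt upstream of the leading one, at 113337130, also fell, by 0.85. Falls of its loci were ranked only where counts averaged at least 50 per library and every pair of libraries had the same direction. Among these loci of the copy the largest falls were those of chr5:113337102-113337130 (-1.46), chr5:113337109-113337128 (-0.997) and chr5:113337102-113337128 (-0.90).

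In Ψ-IP the leading end of this copy was lower than in input but not than in flow-through. The end at 113337128 was at 64.9, 81.5 and 68.6 CPM in input and 36.1, 37.8 and 30.3 CPM in Ψ-IP, lower by -1.13 (adjusted p = 1.36e-06). In flow-through it was at 23.9, 53.2 and 43.5 CPM, overlapping Ψ-IP, with a log2 change of -0.0092 (SE 0.24, adjusted p = 0.985). The MTE2a end at 94290727 was lower in Ψ-IP and, with 473, 467 and 444 CPM in mock and 500, 515 and 489 CPM with CMC, did not pass the CMC test (0.02, SE 0.10). The MTC end at 113322680 on chromosome 5 was at 312, 277 and 283 CPM in mock and 339, 275 and 253 CPM with CMC, overlapping groups, and rose in Ψ-IP against input by 0.70 (adjusted p = 0.0044), a call lost when any 1 library but Ψ-IP replicate 2 was left out. Against flow-through its change was 0.10 (SE 0.24, adjusted p = 0.81), in overlapping groups.

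Of the 12 MT 5′ ends higher with CMC, the 4 with the largest rises among those averaging at least 50 counts per library lay 1 or 2 nt downstream of an abundant end, and the positions of the other 8 were not compared. At 113337126, 2 nt downstream of the leading MTE2b end, the level went from 0.477, 0.394 and 0.699 CPM in mock to 5.05, 4.89 and 6.62 CPM with CMC, a log2 change of 3.32 (SE 0.21, adjusted p = 3.53e-14). At 94290726 and 94290725, 1 and 2 nt downstream of the leading MTE2a end, levels went from 0.337, 0.308 and 0.324 CPM to 3.19, 3.56 and 4.86 CPM and from 1.43, 1.46 and 1.42 CPM to 5.38, 5.63 and 5.74 CPM, by 3.47 and 1.86. At 27350455, 2 nt downstream of the end 27350453 in an MTEa copy on chromosome 17, they went from 0.702, 1.39 and 1.15 CPM to 3.21, 3.97 and 4.83 CPM, by 1.73. In each of these the 3 CMC libraries were above the 3 mock libraries, and the levels after the rise were still a small part of those of the neighbouring end.

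Levels next to an end were then summed over all 88 MT 5′ ends with at least 1000 counts that were the highest within 10 nt. These include the ends just described, so the values are a description and no separate evidence. The level 2 nt downstream, as a share of that of the end itself, was 3.48%, 3.53% and 3.87% in CMC and 2.70%, 2.91% and 2.69% in mock libraries, higher in 9 of 9 pairs, and without the most abundant end it was 3.90% against 3.39% on average, again in 9 of 9. Over the 12529 such ends of all piRNAs, the MT ends included, it was 4.86% against 4.24%. The difference was not confined to this position, since the MT level 3 nt downstream was 4.75% against 4.10%, that 3 nt upstream 7.68% against 7.17% and that 4 nt upstream 2.28% against 1.96%, each higher with CMC in 9 of 9 pairs. Over all piRNAs the levels 1, 2, 3 and 4 nt downstream were each higher with CMC in 9 of 9 pairs, by ratios of 1.16, 1.15, 1.10 and 1.10, while those 3 and 4 nt upstream were not, with 4.22% against 4.30% and 2.04% against 2.04%. Without the most abundant end the values 3 nt downstream and 3 nt upstream overlapped between the groups. At 1 nt downstream the MT share was lower with CMC, at 9.05% against 10.5%, but without the most abundant end it was higher, at 4.20% against 3.45%.

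Among MT loci averaging 50 counts or more per library, the largest rises with CMC were those of the 28-nt MTC locus chr6:127805189-127805216, at 2.25, 1.88 and 1.62 CPM in mock and 4.15, 7.74 and 9.73 CPM with CMC (1.82), the MTC locus chr17:66224621-66224648 (0.87), the MTE2b locus chr5:113337057-113337083 (0.81) and the MTB locus chr17:27341669-27341695 (0.73). The last of these lost its call without mock replicate 1 or 2 or CMC replicate 1 or 2.

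A piRNA that is higher in Ψ-IP and lower with CMC is the pattern that both assays look for. Of 2066 MT loci tested in both, 133 were higher and 274 lower in Ψ-IP than in input, and 16 were higher and 26 lower with CMC. Higher in Ψ-IP and lower with CMC were 4 loci, higher in both 0, lower in Ψ-IP and higher with CMC 7, and lower in both 5. Over all 293568 loci tested in both these counts were 875, 106, 558 and 169. Higher in Ψ-IP and lower with CMC were thus 0.194% of MT loci beside 0.298% of all loci, lower in Ψ-IP and higher with CMC 0.339% beside 0.190%, lower in both 0.242% beside 0.0576%, and higher in both 0% beside 0.0361%.

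The locus chr5:113325033-113325062, printed above with 17 uridines in 30 nt, was 1 of the 4. It was at 12.5, 14.5 and 12.2 CPM in input, 49.0, 39.6 and 42.8 CPM in Ψ-IP and 10.002, 19.4 and 16.7 CPM in flow-through, and at 6.60, 6.15 and 5.84 CPM in mock and 3.76, 4.14 and 2.49 CPM with CMC. No group overlapped with its control, and the log2 changes were 1.60 (adjusted p = 3.09e-11), 1.76 (adjusted p = 5.42e-09) and -0.89 (adjusted p = 0.00026). Its 3′ neighbour in the same copy, chr5:113325000-113325029 with 6 uridines, went the other way in Ψ-IP, at 70.1, 71.1 and 67.7 CPM in input, 13.8, 11.2 and 10.4 CPM in Ψ-IP and 86.3, 70.7 and 80.8 CPM in flow-through, changes of -2.71 and -2.51. That neighbour did not pass the CMC test, at 0.44 (SE 0.20).

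The locus chr17:27350453-27350479, a 27-nt MTEa piRNA, was the most abundant of the 4 in mock, at 51.0, 52.3 and 62.1 CPM in mock and 37.3, 31.4 and 34.0 CPM with CMC (-0.75, adjusted p = 5.36e-05) and at 1.99, 3.14 and 2.33 CPM in input and 6.77, 5.62 and 6.52 CPM in Ψ-IP (1.22, adjusted p = 0.00019). The Ψ-IP call ended without input replicate 1, at 1.07. The MTE2a locus chr5:113336496-113336526 was at 14.4, 15.2 and 14.4 CPM in mock and 9.63, 9.73 and 9.29 CPM with CMC (-0.68) and rose in Ψ-IP by 1.84, with a CMC call that was lost without mock replicate 2. The MTE2a locus chr1:57360160-57360190, with 13 uridines, rose in Ψ-IP by 1.54 and by 2.49 against flow-through. Its CMC change of -0.77 (adjusted p = 0.0088) was just past the threshold and was lost without any 1 mock library, without CMC replicate 1 or 2, and with DESeq2.

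Summed by 5′ end, 1500 MT ends were tested in both assays, and 7 were higher in Ψ-IP and lower with CMC, 1 was higher in both, 3 were lower in Ψ-IP and higher with CMC and 2 were lower in both. These are 0.467%, 0.0667%, 0.200% and 0.133% of the MT ends, beside 0.490%, 0.0735%, 0.245% and 0.0825% of all 178285 5′ ends tested in both. The 7 included the ends of the chr17:27350453 piRNA (0.89 in Ψ-IP against input and -0.75 with CMC), of chr5:113325062 (1.70 and -0.83) and of chr5:113336526 (1.46 and -0.60). They also included chr5:113325065, 3 nt upstream of the uridine-rich MTEa piRNA (1.5001 and -1.41), and the chr17:27308489 end (1.54 and -0.65, adjusted p = 0.0099 for CMC) that carried the rise of its copy. The CMC call of this end was lost without mock replicate 1 or 2 or CMC replicate 1 or 2 and with the replicate block (-0.64), that of chr5:113336526 without mock replicate 2 or CMC replicate 2, and the Ψ-IP call of chr17:27350453 without input replicate 1 (0.77). These ends were chosen for their calls and are a description of single piRNAs.

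**Figure D4:**
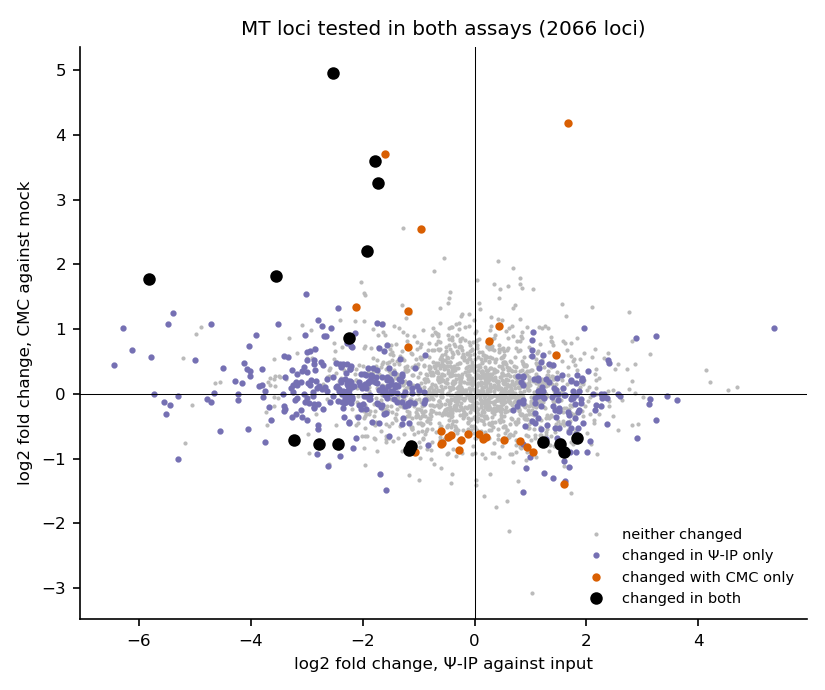
Log2 fold change in Ψ-IP against input (horizontal axis) and with CMC against mock (vertical axis) for the 2066 MT loci tested in both, with loci past the threshold in both marked. Of these, 4 lie at lower right (higher in Ψ-IP, lower with CMC), 7 at upper left, 5 at lower left and 0 at upper right.

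For the 1040 tested MT loci with a sequence, which lie in 30 copies, uridine content could be set beside the change. The first base was T in 86.4% of them. The 64 that were higher in Ψ-IP than in input, from 8 copies, averaged 38.0% T, the 120 that were lower 27.2% and all tested 28.7%. Against flow-through the difference was wider, with 40.9% T in 96 loci that were higher and 18.6% in 46 that were lower. These loci overlap each other in the genome and share libraries and depth, so the values are a description without a test.

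Grouped by T content under 20%, 20% to 30%, 30% to 40% and from 40% (213, 373, 294 and 160 loci), the median log2 change against flow-through was -1.02, -0.27, 0.44 and 2.29. Over 10801 loci in repeats of any kind it was -1.03, -0.46, 0.30 and 1.89, so the order was not particular to MT. Against input the medians were -0.26, -0.38, -0.35 and 0.67, with the rise in the last group alone. Over repeats of any kind they were -0.19, -0.33, -0.12 and 0.46. With CMC the MT medians ran the other way, at 0.30, 0.15, -0.06 and -0.40 over 134, 279, 208 and 83 loci. Over 9071 loci in repeats of any kind they were 0.29, 0.10, -0.12 and -0.44. Across the MT loci Pearson's r of T content with the change was 0.17 against input, 0.56 against flow-through (both n = 1040) and -0.30 with CMC (n = 704). Over repeats of any kind it was 0.13, 0.51 and -0.37.

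The MT loci with a sequence held 22.8% of MT counts in input and 12.5% in mock. Weighted by counts, they averaged 28.7% T in input, 32.1% in Ψ-IP, 24.6% in flow-through, 30.9% in mock and 29.7% with CMC. The printed piRNAs of the chromosome 7 copy show how far single members departed from such medians. The MTE2b piRNA chr7:73837380-73837410, with 12 uridines, did not pass the test against input (0.43) but was at 55.9, 66.3 and 56.1 CPM in Ψ-IP against 2.14, 2.75 and 3.50 CPM in flow-through (4.67). Its neighbour chr7:73837458-73837486, with 11 uridines, was also higher than flow-through, by 1.80, and did not pass the test against input (0.35, adjusted p = 0.27). The piRNA chr7:73837247-73837275, with 8, was lower than input by -1.90 and lower than flow-through by -0.98 (adjusted p = 0.0064). The MTEa pair chr5:113325287-113325317 and chr5:113325288-113325319 rose against input by 1.07 and 1.85 and was near flow-through, at -0.15 and 0.22.

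**Figure D5:**
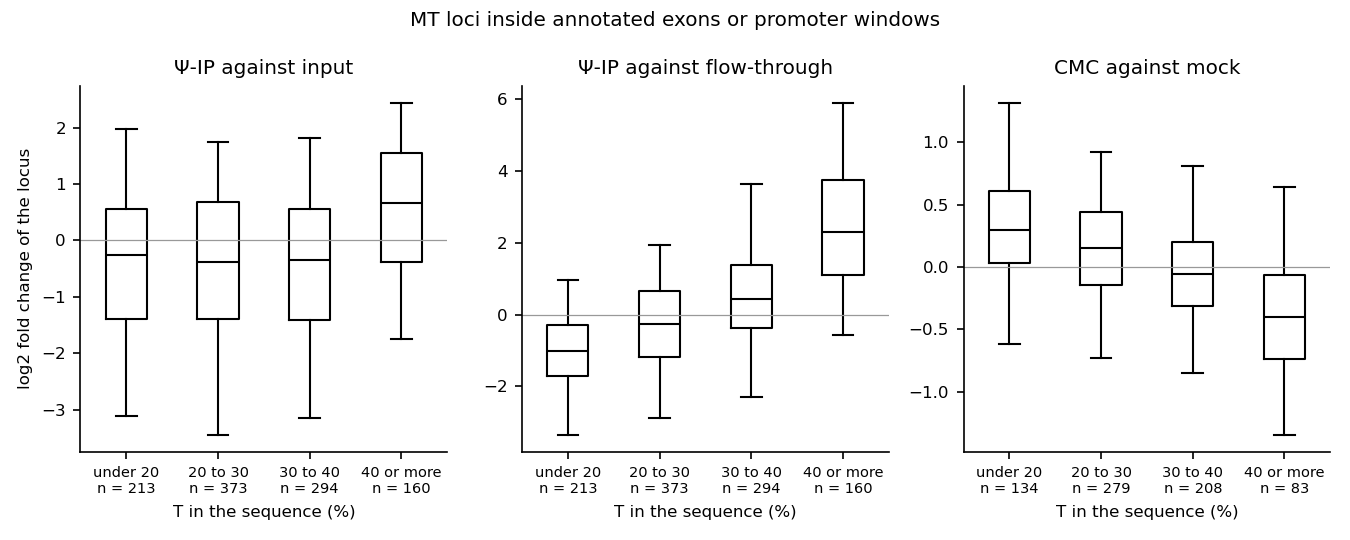
Log2 fold change of MT loci with a sequence (vertical axis) by the percent of T in the piRNA (horizontal axis, 4 groups) for Ψ-IP against input, Ψ-IP against flow-through and CMC against mock; boxes are quartiles with the median line and whiskers run from the 5th to the 95th percentile of loci. The medians against flow-through go from -1.02 to 2.29 and those with CMC from 0.30 to -0.40.

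MT piRNAs were shorter than the piRNAs as a whole, by the least in flow-through. Loci of 25 to 27 nt, the length bound by MILI, held 18.1% ± 0.39 (SD, n = 3) of MT counts in input, 17.2% ± 1.12 in Ψ-IP and 15.8% ± 0.68 in flow-through, and 25.2% ± 0.94 in mock and 24.4% ± 0.40 with CMC. Over all piRNAs they held 13.7%, 12.5%, 13.9%, 19.2% and 20.7%. The excess of MT over all piRNAs in this class was 4.17, 3.51 and 3.58 percentage points with CMC and 5.51, 6.01 and 6.499 in mock, which did not overlap (exact permutation p = 0.1, the smallest possible). It was 4.61, 5.51 and 3.94 in Ψ-IP, above all flow-through libraries at 1.32, 2.08 and 2.12 (exact permutation p = 0.1) and overlapping with input at 4.15, 4.61 and 4.45 (exact permutation p = 0.8). Loci of 29 to 31 nt, the length bound by MIWI, held 63.5% of MT counts in input and 54.4% in mock, beside 67.2% and 60.1% over all piRNAs. In flow-through they held 65.0%, 64.6% and 65.8% of MT counts, near the 65.0%, 65.6% and 66.4% over all piRNAs. Mock and CMC libraries had no counts above 33 nt, so their length shares have another base than those of the Ψ-IP set.

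MT counts lay nearly all on 1 strand of their copy. Between 99.0% and 99.4% of MT counts lay on the major strand of their copy. Where both strands were covered, 5′ ends on opposite strands overlapped by 10 nt, the spacing that slicing by a PIWI protein leaves, in 5.57% of overlaps in input, 6.63% in Ψ-IP, 7.70% in flow-through, 5.92% in mock and 5.44% with CMC. The matched counts behind these overlaps were only 6.45% of MT counts in input, 2.96% in Ψ-IP, 4.19% in flow-through, 2.62% in mock and 2.94% with CMC. An even spread over the overlaps counted would give 3.33%, and 10 nt was the most frequent overlap in all 15 libraries. Over all repeats the corresponding values were 5.88%, 6.39%, 8.17%, 6.29% and 6.13%.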

How the data were processed

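Small RNA of mouse testis had been sequenced in 15 libraries, 3 per group, which were grouped by their labels. Per the methods and labels, the authors clipped adaptors, kept reads of 14 to 44 nt, set tRNA fragments aside, mapped with Bowtie 2 to mm10 with at most 3 mismatches, and intersected alignments with repeats and piRNA clusters. In the files, mock and CMC libraries held no counts at 34 to 44 nt, while input, Ψ-IP and flow-through libraries did. Each deposited file holds raw read counts by interval and strand, not normalized. The labels and the methods give different size ranges for the RNA taken from the gel. How reads with several alignments were counted is not given in the sources used here.

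Counts were joined over libraries by interval and strand and summed by 5′ end, copy, repeat name, lineage and repeat family. Tests were fitted on the 6 libraries of each comparison over all piRNAs or repeats with edgeR 4.0.16 in R 4.3.3 (TMM, quasi-likelihood test, Benjamini-Hochberg adjustment, threshold 0.01), and DESeq2 1.42.0 was an alternative. Loci needed more than 20 counts in total, copies an average of 10 and names, lineages and families an average of 100 counts per library. SE was taken as the absolute log2 change over the root of its F statistic. CPM in the text are counts per 1000000 counts of the library, without TMM. Single values per library were compared by exact permutation tests, two-sided, in scipy 1.17.1. The steps were tested on simulated data.

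Depth ran from 35618956 to 58399368 counts per library in mock, 24154811 to 48909154 in CMC, 16571184 to 25063656 in input, 11575705 to 23935827 in Ψ-IP and 14305933 to 21494965 in flow-through. Reads carry no molecular identifiers and are not independent molecules. In the CMC set same-numbered libraries deviated together from their group means (correlations 0.116, 0.137 and 0.281 over 87515 loci, although 1 pair of different numbers reached 0.222), so the replicate number from the labels was treated as pairing in an alternative fit.

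The members, lists and tests were chosen with earlier results of these data known. The loci named were the 6 most abundant, up to 4 largest rises and falls against input and with CMC averaging at least 50 counts with the same direction in all 9 pairs of libraries, and up to 4 changed in both assays; 5′ ends were named by the same rule after the data were seen. The names given were those past the threshold and the 5 most abundant, and the copies were the 6 most abundant and up to 4 rises and 4 falls per comparison. Printed sequences were read from GENCODE transcripts of GRCm38, the assembly of mm10, and RefSeq promoter windows. Alternatives were other scalings, filters, DESeq2, a length range, the replicate block, leaving out 1 library and leaving out a name's most abundant copy.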

Additional observations from a re-analysis of the deposited data

How the results depend on the processing

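Most recomputed values kept their direction and their side of the threshold, and the exceptions among the comparisons follow. Their causes were not tested. The counts of MT loci depended on the method. Against input, 209 loci were higher, and the count was 128 with DESeq2, 98 with no filter on low counts and 97 to 225 when 1 library was left out. The 526 lower loci were 305 with DESeq2, 313 with a stricter filter and 297 to 499 when 1 library was left out. Against flow-through the 361 higher loci were 237 with the stricter filter, which tests fewer loci, and 248 to 324 when 1 library was left out, and the 216 lower loci were 129 with no filter and 136 to 191. With CMC the 37 higher loci were 23 with DESeq2 and 21 to 34, and the 29 lower loci were 14 with no filter and 18 to 37.

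When 1 library was left out, changed MT names numbered 1 to 4 against input and 0 to 2 with CMC, changed copies 27 to 41 against input, 25 to 37 against flow-through and 1 to 7 with CMC, changed 5′ ends 294 to 472, 250 to 347 and 14 to 38, and changed lineages with CMC 0 to 1. With CMC, changed copies were 5 with library totals, 6 with DESeq2 and 5 with the stricter filter, and changed lineages 2 with DESeq2. The summed MT change against input of -0.084 was no longer called with DESeq2 size factors (-0.0398), library totals (-0.067), DESeq2's Wald test (-0.0398), no filter (-0.0441), the stricter filter (-0.0513) or loci of 24 to 33 nt only (-0.0808), nor without 1 library (-0.10 to -0.0714).

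Several of the values that reversed were close to 0 to begin with. With CMC the MT share changed by -0.000878 percentage points over loci with more than 20 counts only, the summed MT change was -0.000613 with the stricter filter, the ratio to ORR1 ran from -0.0243 to 0.000172 without 1 library, and the percent of MT counts at 29 to 31 nt from -0.639 to 1.21. Against flow-through the ratio to the remaining MaLR elements ran from -0.00191 to 0.032, and the 29 to 31 nt class from -1.25 to 0.11. Among called changes, MTB against flow-through (-0.36) went to 0.456 and MTE2b with CMC (-0.32) to 0.0628 without their most abundant copy.

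With the replicate number as a block, treated as pairing in the CMC set, 43 MT loci were higher and 41 lower with CMC and 2 copies were higher and 2 lower, while 1 name was higher and 1 lower and 1 lineage was changed as without the block. In the Ψ-IP comparisons same-numbered libraries did not deviate together in every pair (correlations 0.242, 0.295 and -0.029 against input, 0.082, 0.180 and -0.053 against flow-through), so there the number is only a name; with the block 177 MT loci were higher and 447 lower than input, and 304 and 165 than flow-through.

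On simulated counts, tried only at loci averaging at least 50 counts, 10 of 95 loci with a 2-fold change and 104 of 105 with a 4-fold change were recovered for Ψ-IP against input, 3 of 90 and 83 of 110 for Ψ-IP against flow-through, and 72 of 101 and 99 of 99 for CMC against mock, so at these loci 2-fold changes were mostly not detectable in the Ψ-IP set.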
